A study of Rattus norvegicus with 12 samples.

Results

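The genes described here control the first gap phase of the cell cycle (G1). They are the D-type cyclins Ccnd1, Ccnd2 and Ccnd3, the E-type cyclin Ccne1, the kinase Cdk4, the inhibitors of cyclin-dependent kinases (CDKs) Cdkn1a and Cdkn2c, and the growth arrest genes Gadd45a, Gadd45b and Gadd45g. They were taken as the probe sets whose array annotation gives exactly 1 gene symbol and that symbol is among these 10 genes, which selected 14 of the 31099 probe sets of the array and 10 of 14217 genes. All 14 were bright enough to be tested.

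The RNA came from primary cultures of aortic smooth muscle cells of newborn rats, all deprived of serum overnight, and was hybridised to 12 arrays in 6 groups of 2. In the thrombin experiment unstimulated cells were set beside cells given thrombin at 2 U/ml for 120 min. In the TRAP experiment they were set beside cells given 25 µM TRAP, the thrombin receptor-activating peptide, for 120 min, and in the third experiment beside cells given 25 µM TRAP for 120 min after 24 h with 200 ng/ml pertussis toxin (PTX), which stops receptors from acting through Gi proteins. Thrombin, a clotting protease, opens its receptors by cutting them. The unstimulated cells of the third experiment are labelled as having no agent, so changes in it can hold an effect of PTX as well as of TRAP. No genotype is given. Nothing in the labels says whether the replicates were separate cultures. The p-values therefore speak only of the spread among these arrays.

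In a resting cell that receives a growth signal, D-type cyclins accumulate and join Cdk4 or Cdk6, and these kinases begin to phosphorylate the Rb protein. Cyclin E with CDK2 then completes that step and releases the E2F factors that switch on replication genes. Cdkn1a encodes p21, which binds cyclin and CDK complexes and is a classical p53 target, and Cdkn2c encodes p18, which binds CDK4 and CDK6. Gadd45 proteins are small acidic proteins that bind the kinase MAP3K4, PCNA, p21 and CDK1, and their genes are known for rapid responses to stress, cytokines and growth arrest. In arterial smooth muscle, passage through G1 is the step at which quiescent contractile cells return to division.

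At 120 min the strongest changes among the 10 genes, averaged over the 3 experiments, were opposite changes of a pair of Gadd45 genes. In that average Gadd45g rose by 0.50 ± 0.10 (SE) on the log2 scale, 1.41-fold, and Gadd45a fell by 0.43 ± 0.10. Taken singly, Gadd45g passed the test only after TRAP and Gadd45a in no experiment. Cdkn2c fell by 0.26 ± 0.07 in the average, but measured 0.06 after PTX and TRAP. Its call was lost in 13 of 24 alternative fits. None of the 3 D-type cyclins, Ccne1 or Cdk4 passed the test in the average or in any single response on its brightest probe set. The largest differences in these comparisons were between the unstimulated cells of the experiments: Ccnd1, Ccnd2 and Cdkn1a were 2.86-, 2.67- and 2.57-fold higher, and Ccne1 2.82-fold lower, in those of the thrombin experiment than in those of the TRAP experiment.

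Values were compared as log2(signal + 16), which understates changes of dim genes, with limma over all 12 arrays, and p-values were adjusted by Benjamini-Hochberg over the 18625 probe sets tested, with a threshold of 0.05. A gene is represented by its brightest probe set. By this test 2 of 10 genes were called after TRAP, both higher, where 3.9% of all tested probe sets were called and 1.84% were called higher. After thrombin 0 of 10 were called against 4.74% of all, and after PTX and TRAP 0 of 10 against 2.71%. At an unadjusted p under 0.05 these counts were 4, 5 and 2 of the 10, where 16.3%, 18.0% and 16.9% of all probe sets were under it. In the average of the 3 responses 3 of 10 were called, 1 higher and 2 lower, against 13.2% of all (5.55% higher and 7.62% lower). Both arrays of a stimulated group lay above both basal arrays for 1 gene after thrombin, 2 after TRAP and 2 after PTX and TRAP, against 18.8%, 19.2% and 18.1% of all probe sets. They lay below for 6, 4 and 3 genes, against 28.6%, 29.4% and 27.1% of all. The median of the 10 genes was -0.19 after thrombin, -0.22 after TRAP, 0.08 after PTX and TRAP and -0.15 in the average, while the median of all tested probe sets was -0.04 in each of the 4.

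Median array signals lay between 39.7 and 53.6, and the correlation between replicates was 0.983 to 0.991. Of the smooth muscle markers Acta2 lay at 4568 to 9115 and Tagln at 3747 to 7749. Dim ones were Myh11 at 15.8 to 65.8, Des at 15.8 to 52.9 and Mylk at 44.5 to 144.1. All 8 markers listed were bright enough to test. Of the endothelial markers 1 of 5 on the array was, of the leukocyte markers 1 of 6 (Cd14, at 297 to 578), and of the Schwann cell markers 0 of 2. Of the fibroblast markers 5 of 6 were, with Mfap5 at 4658 to 6222 and Dcn at 608 to 2424. The 8 arrays of the TRAP experiments form 2 sets that cut across the labels. In the first set are the basal arrays of the TRAP experiment together with replicate 2 of TRAP and replicate 1 of TRAP after PTX. The second set is made up of the basal arrays of the PTX experiment together with replicate 1 of TRAP and replicate 2 of TRAP after PTX. Saa3, an acute-phase gene, was at 15.9 to 22.8 in the first and 222.5 to 421 in the second, and 17 of 18 genes of S and M phase were higher on every first-set array than on any of the second. Mki67 was among them, while Plk1 overlapped. The groups were kept as labelled. Whether an array was exchanged was not tested, and each response of the TRAP experiments rests on those labels. Values for the TRAP experiments are therefore also given with the sets as a block. They are given too after removing replicate 1 of TRAP and replicate 1 of TRAP after PTX. These are called the crossing arrays because their basal arrays belong to the other set. Removing them leaves 1 stimulated array in each TRAP experiment, so a call lost there can also reflect fewer arrays. The sets were read from these same arrays, so a lower p with the block is no independent support.

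**Figure D1:**
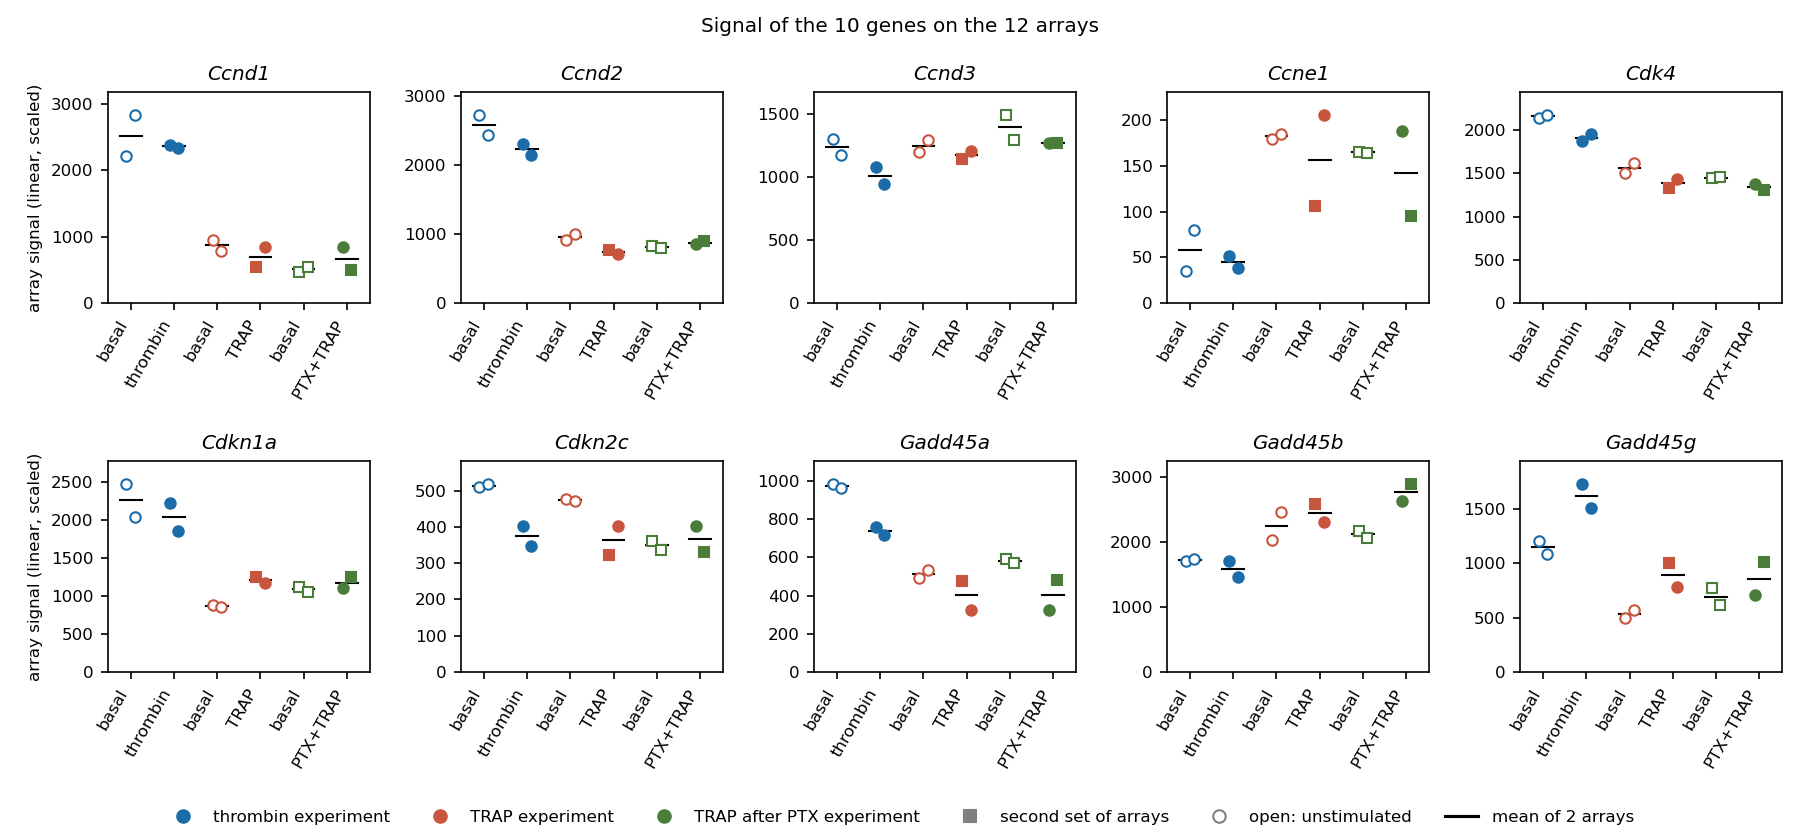
Array signal (linear scale, vertical axis) of the brightest probe set of each of the 10 genes on the 12 arrays; open symbols are unstimulated cells, squares are the second set of arrays, and bars are means of 2 arrays. Ccnd1, Ccnd2 and Cdkn1a sit highest on all 4 arrays of the thrombin experiment, Ccne1 sits lowest there, and Ccnd1, Ccne1 and Cdkn2c are lower on each square than on each circle of the TRAP experiments.

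Ccnd1 encodes cyclin D1, the D-type cyclin best known as a target of ERK signalling. Its brightest probe set read 2216 and 2836 on the basal arrays of the thrombin experiment and 2391 and 2335 after thrombin, so the groups overlapped. It read 949 and 790.4 before TRAP and 549.5 and 852 after, and 468 and 550.1 before and 847 and 496 after PTX and TRAP. One stimulated array of each TRAP experiment was thus far from its partner, and no group of stimulated arrays stood clear of its basal group. The thrombin response was -0.09 ± 0.22 (SE, log2; 95% interval -0.57 to 0.40; limma adjusted p = 0.894), the TRAP response -0.33 ± 0.22 (adjusted p = 0.52) and the response after PTX and TRAP 0.34 ± 0.22 (adjusted p = 0.466). With the array sets as a block the TRAP response was 0.01 and that after PTX and TRAP 0.0020, and without the crossing arrays they were -0.02 and -0.03.

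Ccnd1 has a further pair of probe sets. The dimmest of the 3, with a mean signal of 549, read 316 and 338 on the basal TRAP arrays and 196 and 252 after TRAP. It fell by 0.52 ± 0.12 on the log2 scale after TRAP (limma adjusted p = 0.0302), whereas the middle one, with a mean signal of 872, changed by -0.11 ± 0.16 and overlapped between the groups. With the sets as a block the fall of the dimmest probe set was -0.43 (adjusted p = 0.0845), and without the crossing arrays -0.36 (adjusted p = 0.246), so that call was lost both ways. After thrombin the 3 probe sets measured -0.09, -0.27 and -0.20 from brightest to dimmest and none passed. No probe set of this cyclin gene rose after thrombin. After PTX and TRAP the dimmest was higher without overlap, going from 182 and 216 to 253 and 247 (0.31 ± 0.12, limma adjusted p = 0.212). The middle one measured -0.06 ± 0.16 there.

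Ccnd2, the gene of cyclin D2, read 2719.6 and 2431 before thrombin and 2307 and 2136 after, so both stimulated arrays were lower. Before TRAP it read 909 and 996 and after TRAP 766 and 708, again without overlap. After PTX and TRAP the direction was the other way, from 824 and 793 to 853 and 896. The TRAP response, -0.36 ± 0.10, just missed the threshold (adjusted p = 0.0509) and the thrombin response was -0.21 ± 0.10 (adjusted p = 0.263). The block for array sets gave a TRAP response of Ccnd2 of -0.41 (adjusted p = 0.0458), and without the crossing arrays it was -0.42 and did not pass (adjusted p = 0.111). Its response after PTX and TRAP was 0.11 ± 0.10, and the difference between the responses with and without PTX was 0.47 ± 0.13 (limma adjusted p = 0.259).

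Ccnd3, the gene of cyclin D3, lay between 942 and 1493 on all 12 arrays. It read 1306 and 1175 before thrombin and 1078 and 942 after, a response of -0.29 ± 0.10 with no overlap (adjusted p = 0.136). Its responses to TRAP and to TRAP after PTX were -0.08 ± 0.10 and -0.13 ± 0.10. Each D-type cyclin was thus measured below its basal level after thrombin, by 0.09 to 0.29 on the log2 scale, with no call.

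Ccne1, whose product cyclin E1 acts later in G1, had low signals in the thrombin experiment. It read 35.6 and 79.9 before and 51.6 and 38.5 after thrombin, so basal and stimulated arrays overlapped and the standard error was the largest of the 10 (0.32). It read 179.7 and 185 before TRAP and 106 and 205.5 after, and 165 and 164 before and 188 and 95.5 after PTX and TRAP. The stimulated arrays of each TRAP experiment lay on both sides of their basal arrays. The responses were -0.21, -0.27 and -0.26 with adjusted p of 0.803, 0.763 and 0.728. With the sets as a block the TRAP response of Ccne1 turned to 0.16 and that after PTX and TRAP was -0.69 (adjusted p = 0.203). Cdk4, the kinase partner of the D-type cyclins, read 2142 and 2173 before and 1871 and 1949.5 after thrombin. It was lower on both stimulated arrays in each experiment, by 0.17 ± 0.09 (thrombin), 0.17 ± 0.09 (TRAP) and 0.11 ± 0.09 (PTX and TRAP) on the log2 scale. Its average of -0.15 ± 0.05 did not pass (adjusted p = 0.0592).

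**Figure D2:**
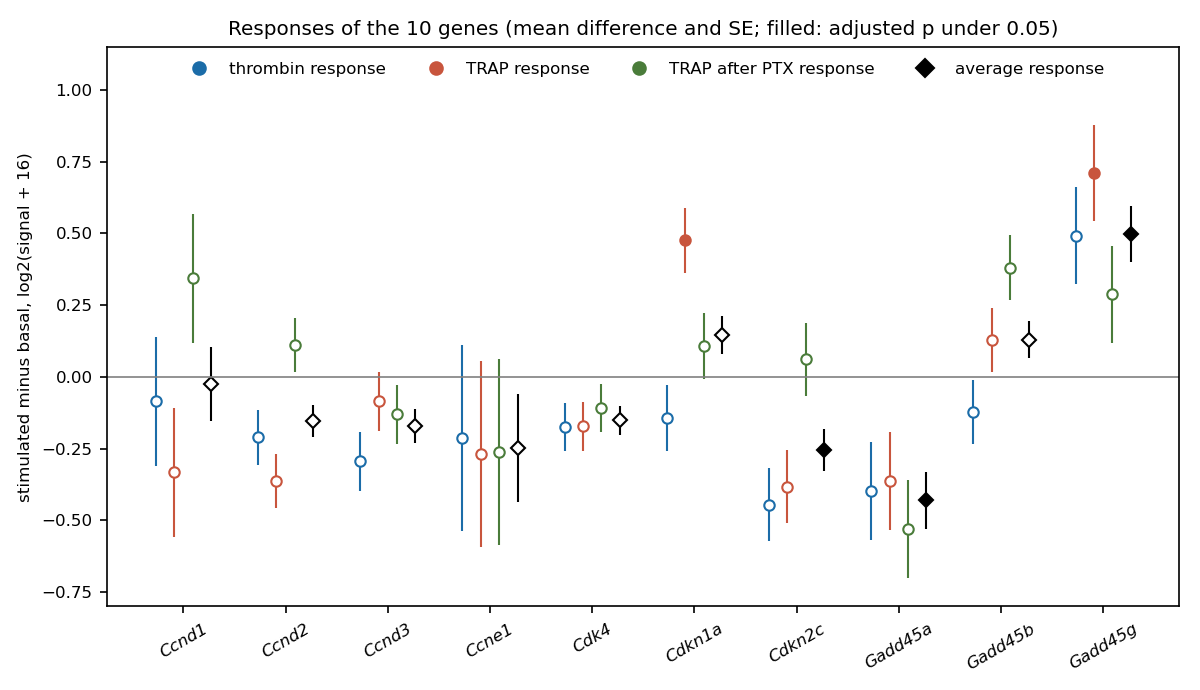
Difference between stimulated and basal arrays, log2(signal + 16), for the 10 genes in each experiment and in the average; bars are standard errors from the limma fit and filled symbols passed an adjusted p of 0.05. Gadd45g lies above 0 and Gadd45a below 0 in all 3 experiments, while the cyclins and Cdk4 carry open symbols throughout.

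The CDK inhibitor gene Cdkn1a rose after TRAP on its brightest probe set. It read 879 and 857 on the basal TRAP arrays and 1248 and 1179 after TRAP, both above both basal values. The change was 0.48 ± 0.11 (SE, log2; limma adjusted p = 0.0333), or 0.41 with the sets as a block (adjusted p = 0.0923). The call was lost without either basal TRAP array or either TRAP array, with adjusted p from 0.102 to 0.195. Thrombin gave -0.14 ± 0.11, from 2482.5 and 2043.5 to 2226 and 1866, and PTX with TRAP gave 0.11 ± 0.11, from 1122 and 1058 to 1107 and 1247. The second probe set of Cdkn1a, with a mean signal of 571, did not show the TRAP change: it read 335 and 301 before and 341 and 296 after, a difference of -0.0012 ± 0.12. After PTX and TRAP the second probe set did not overlap between the groups, going from 299 and 253 to 325 and 388 (0.35 ± 0.12, adjusted p = 0.161). The probe sets of Cdkn1a were thus 0.48 and -0.0012 after TRAP and both positive after PTX and TRAP, and the difference between them was not tested.

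Cdkn2c, the p18 gene, read 509 and 519 before thrombin and 402 and 346.5 after. It read 478 and 472 before TRAP and 322 and 403 after, so the stimulated arrays were lower in both experiments without overlap. After PTX and TRAP it read 402 and 330.5 against basal values of 360.3 and 337.5, which overlap. The responses were -0.45 ± 0.13 (adjusted p = 0.0647), -0.38 ± 0.13 (adjusted p = 0.132) and 0.06 ± 0.13 (adjusted p = 0.851). Their average of -0.26 passed (adjusted p = 0.0358), and the call was lost in 13 of 24 alternative fits, with adjusted p up to 0.117. The thrombin response passed at the same size in the fit with that block (adjusted p = 0.0191). With the block, the TRAP response of Cdkn2c was -0.24 and that after PTX and TRAP -0.08. A second probe set, dim at a mean signal of 33.8, measured 0.04, 0.45 and -0.79 in the 3 responses and passed in none.

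**Figure D3:**
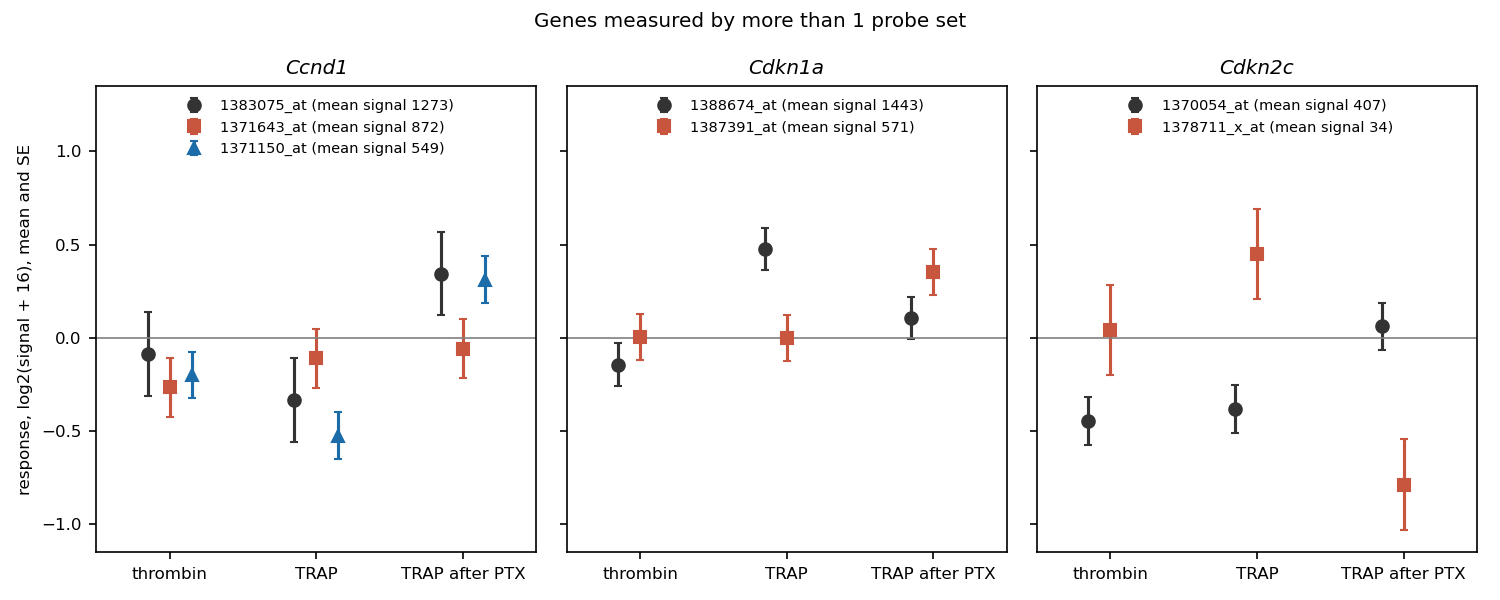
Responses of each probe set of the 3 genes that have more than 1, as log2(signal + 16) differences with standard errors. The 2 probe sets of Cdkn1a part after TRAP, at 0.48 and -0.0012, and those of Cdkn2c part in both TRAP experiments.

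The Gadd45 genes are paralogs, of which 1 rose and 1 fell in the average. The 250 bases before the RefSeq start of each gene (rat build GRCr8) are shown because 1 of the 3 paralogs rose, 1 fell and 1 was not called. Gadd45a lies at chr4:97486800-97487049, Gadd45b at chr7:9430719-9430968 and Gadd45g at chr17:13530352-13530601, all on the minus strand, and each is written 5′ to 3′ on the strand of its gene. Capitals mark matches to CACGTG (the E-box) and TATAAA (the TATA box).

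Gadd45a: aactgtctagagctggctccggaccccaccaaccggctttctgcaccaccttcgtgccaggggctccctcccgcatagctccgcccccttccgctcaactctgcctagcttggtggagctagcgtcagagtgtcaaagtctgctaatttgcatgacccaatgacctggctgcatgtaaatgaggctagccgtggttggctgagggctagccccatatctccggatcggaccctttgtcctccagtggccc
Gadd45b: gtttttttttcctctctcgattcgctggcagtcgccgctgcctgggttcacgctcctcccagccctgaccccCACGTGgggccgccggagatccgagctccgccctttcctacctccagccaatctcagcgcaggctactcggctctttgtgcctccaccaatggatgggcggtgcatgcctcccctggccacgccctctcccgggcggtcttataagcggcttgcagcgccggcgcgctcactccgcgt
Gadd45g: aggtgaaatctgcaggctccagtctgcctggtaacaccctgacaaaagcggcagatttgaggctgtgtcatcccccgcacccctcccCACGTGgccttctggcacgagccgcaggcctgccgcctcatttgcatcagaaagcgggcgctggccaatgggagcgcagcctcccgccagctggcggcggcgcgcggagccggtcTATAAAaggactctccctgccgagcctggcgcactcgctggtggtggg

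The letters of CACGTG were found in the Gadd45b window, starting 178 bases upstream, and in the Gadd45g window, starting 163 bases upstream, and TATAAA in the Gadd45g window, starting 48 bases upstream. Of 33469 such windows in the RefSeq table, 5.59% hold CACGTG and 12.9% hold TATAAA on either strand. The GC box GGGCGG occurs in the Gadd45a and Gadd45b windows and in 30.5% of all. No match to the AP-1 motif TGANTCA (6.34% of all), the cyclic AMP response element TGACGTCA (1.59%), the SRF CArG box (1.5%), the EGR motif GCGNGGGCG (4.29%), the E2F motif TTTNGCGC (1.04%) or the NF-kB motif (3.54%) lies in these 3 windows. Both strands were searched, motifs may overlap, and a match is a stretch of letters, not a site. All windows had a median GC content of 51.2%, while the Gadd45a, Gadd45b and Gadd45g windows had 59.6%, 66.0% and 66.0%. The shares over all windows are thus not matched for base content. Windows were found for 8 of the 10 genes. Cdk4 also holds CACGTG, at 3 places.

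Gadd45g, the family member usually linked to growth arrest and cytokine signals, read 1207 and 1087 before thrombin and 1732 and 1512 after. It read 495 and 573 before TRAP and 1001 and 778 after, and 769.6 and 618 before and 707 and 1011 after PTX and TRAP. Both stimulated arrays were above both basal arrays with thrombin and with TRAP, and the groups overlapped after PTX and TRAP. The TRAP response was 0.71 ± 0.17 (SE, log2; limma adjusted p = 0.0301), the thrombin response 0.49 ± 0.17 (adjusted p = 0.123) and the response after PTX and TRAP 0.29 ± 0.17 (adjusted p = 0.412). The average of 0.50 had an adjusted p of 0.0041, and 4.2% of all tested probe sets had an average at least as large in either direction. The average passed in all 24 alternative fits, between 0.41 and 0.58. With the array sets as a block, the thrombin, TRAP and TRAP after PTX responses of Gadd45g were 0.49, 0.50 and 0.50, with adjusted p of 0.0313, 0.0626 and 0.0805. The TRAP call was lost without TRAP replicate 1 (0.53, adjusted p = 0.215) and without either basal TRAP array (0.61 and 0.82, adjusted p = 0.247 and 0.091).

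Gadd45a, the family member known as a p53 target, fell in the average. It read 986 and 965 before thrombin and 757 and 716 after, 495 and 534 before TRAP and 478 and 327 after, and 589.9 and 569.9 before PTX and TRAP and 326 and 483 after. In each experiment both stimulated arrays were below both basal arrays. The responses were -0.40 ± 0.17 (adjusted p = 0.235), -0.36 ± 0.17 (adjusted p = 0.314) and -0.53 ± 0.17 (adjusted p = 0.129), none past the test on its own. The average of -0.43 had an adjusted p of 0.0109 and passed in all 24 alternative fits, between -0.52 and -0.34. With the array sets as a block the responses were -0.40, -0.63 and -0.26, with adjusted p of 0.0186, 0.00254 and 0.22. The TRAP response was -0.63 without TRAP replicate 1 and -0.10 without TRAP replicate 2 (adjusted p = 0.88). Without TRAP after PTX replicate 2 the response after PTX and TRAP was -0.80 and passed (adjusted p = 0.0362), and without TRAP after PTX replicate 1 it was -0.26 and did not.

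Gadd45b, known as a target of NF-kB and TGF-beta, passed in no response. It read 1707 and 1731.5 before thrombin and 1701 and 1465 after. It read 2025 and 2459 before and 2577 and 2308 after TRAP, with overlap. After PTX and TRAP it went from 2171 and 2061 to 2633.5 and 2891.5, with no overlap. The responses were -0.12 ± 0.11, 0.13 ± 0.11 and 0.38 ± 0.11, with adjusted p of 0.638, 0.647 and 0.0936.

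**Figure D4:**
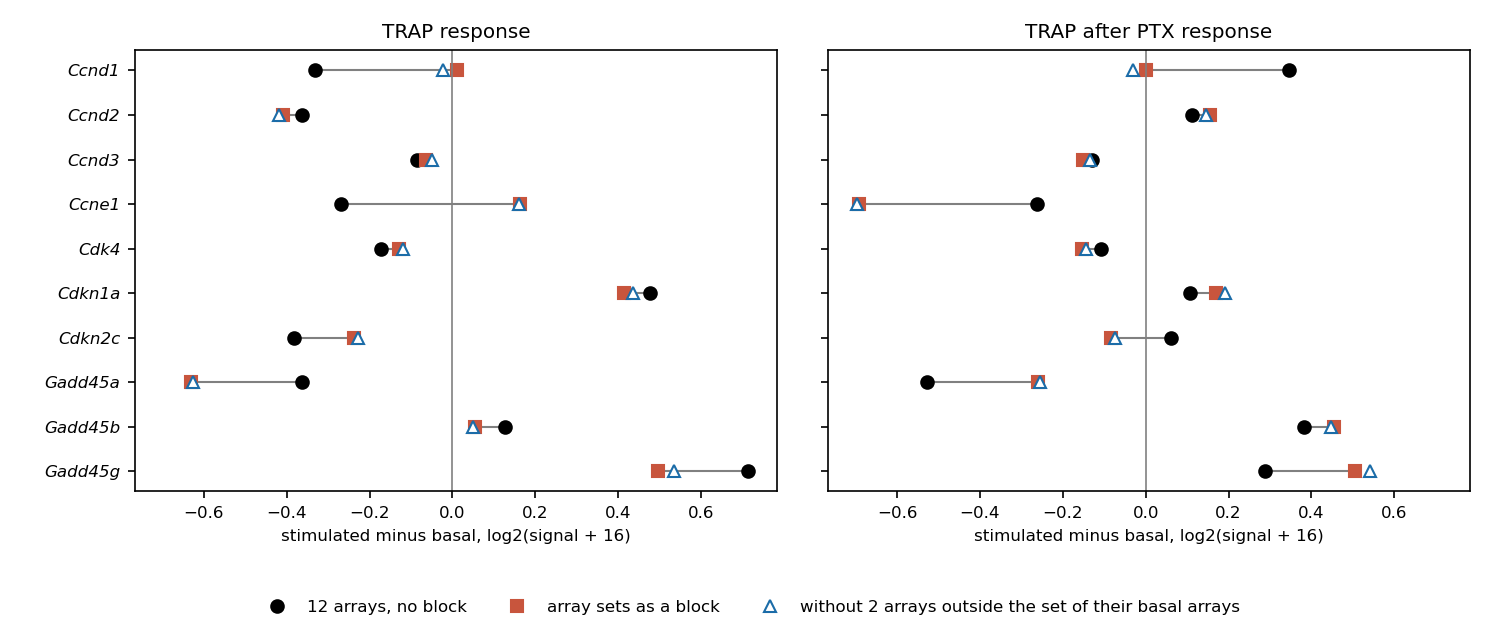
Responses of the 10 genes in the TRAP experiments with all arrays, with the 2 sets of arrays as a block, and without the crossing arrays (log2 scale). Ccnd1 moves from -0.33 and 0.34 to 0.01 and 0.0020 with the block, and Gadd45g from 0.71 and 0.29 to 0.50 and 0.50.

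The set differences touched some of the 10 genes. Ccnd1 was at 790.4 to 949 on the 4 first-set arrays and 468 to 550.1 on the second, Ccne1 at 179.7 to 205.5 and 95.5 to 165, and Cdkn2c at 402 to 478 and 322 to 360.3. These 3 genes did not overlap between the sets, all higher in the first, as were 3.8% of the tested probe sets. Higher in the second set without overlap was 0 of the 10, against 3.32% of all. The S and M phase list moved the same way: its median was -0.29 after TRAP and 0.20 after PTX and TRAP, and -0.04 and -0.11 without the crossing arrays. What separates the sets was not tested.

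Whether thrombin and TRAP, or TRAP with and without PTX, differ in their effect was asked of the differences between responses. In the comparison of the thrombin with the TRAP response 0 of the 10 genes passed limma's test against 0.532% of all, with 1 at an unadjusted p under 0.05 (10.1% of all). In the PTX effect 0 of 10 passed against 0.129%, with 3 at an unadjusted p under 0.05 (8.28% of all). Those 3 were Ccnd2 (0.47 ± 0.13), Cdkn2c (0.44 ± 0.18) and Cdkn1a (-0.37 ± 0.16), at 0.56, 0.15 and -0.24 with the block. The second probe set of Cdkn1a measured 0.35 ± 0.17 in the PTX effect and the dim one of Cdkn2c -1.24 ± 0.34. Cdkn1a had the largest difference between thrombin and TRAP, -0.62 ± 0.16 (95% interval -0.97 to -0.27; adjusted p = 0.137), and its second probe set measured 0.0043. For Gadd45g the PTX effect was -0.42 ± 0.24 (95% interval -0.93 to 0.09), and 0.0080 with the block. For the brightest probe set of Ccnd1 it was 0.68 ± 0.32 (95% interval -0.01 to 1.36), and -0.0089 with the block. The middle probe set of Ccnd1 gave 0.05 ± 0.22 and the dimmest 0.84 ± 0.17 (limma adjusted p = 0.0906). With the block the dimmest still measured -0.43 after TRAP and 0.22 after PTX and TRAP. For Gadd45a the PTX effect was -0.16 ± 0.24 (95% interval -0.69 to 0.36), and 0.37 with the block. Standard errors of the differences ran from 0.12 for Cdk4 to 0.46 for Ccne1.

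The unstimulated cells of the thrombin and TRAP experiments differed in 8 of the 10 genes, 6 higher and 2 lower in the thrombin experiment, where 40.7% of all tested probe sets differed (18.5% higher and 22.2% lower). Ccnd1 was 1.52 ± 0.22 higher on the log2 scale (limma adjusted p = 0.000132), Ccnd2 1.42 ± 0.10 (adjusted p = 1.26e-07) and Cdkn1a 1.36 ± 0.11 (adjusted p = 9.72e-07). The other probe sets of Ccnd1 gave 1.70 and 1.86 and that of Cdkn1a 1.71. Gadd45g was higher by 1.08 ± 0.17, Gadd45a by 0.90 ± 0.17 and Cdk4 by 0.46 ± 0.09. Ccne1 was lower, at -1.50 ± 0.32 (adjusted p = 0.00229), and so was Gadd45b, at -0.37 ± 0.11 (adjusted p = 0.0164), a call that was lost with each array centred on its median (-0.31, adjusted p = 0.0575), without basal thrombin replicate 1 (-0.36, adjusted p = 0.0627) and without basal TRAP replicate 2 (-0.23, adjusted p = 0.187). Ccnd3 (-0.01 ± 0.10) and Cdkn2c (0.11 ± 0.13) did not pass. Transcripts of Ccnd1, Ccnd2 and Cdkn1a were thus higher where that of Ccne1 was lower.

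Other G1 genes differed between these basal cells too. Of the S and M phase list 16 of 18 tested genes were lower in the thrombin experiment and 0 higher, with a median of -1.05 and Mki67 at -1.73 ± 0.25, against a median of -0.01 for all probe sets. Ccne2, the second E-type cyclin gene, was lower by 1.55 on the log2 scale (-1.55 ± 0.25), and the inhibitor gene Cdkn2b, which encodes p15, was higher by 1.44 ± 0.19. Of 12 tested genes of p53 and its targets 6 were higher and 1 lower, among them Mdm2 at 0.83 ± 0.08. Marker lists moved with this comparison: the 8 smooth muscle markers summed to 9866 to 10372 on the basal arrays of the thrombin experiment and 15061 to 17545 on those of the TRAP experiment, 7 of the 8 were lower and 0 higher, and the 6 fibroblast markers summed to 5580.2 to 5585 and 8388.5 to 9040. The summed leukocyte markers, of which only Cd14 was bright enough to test (Ptprc lay at 0.4 to 12), were 530.5 to 629 and 334 to 365. The part of these in the result was not tested, and experiment and cell preparation cannot be told apart. In RNA from whole cultures, fewer expressing cells and less RNA per cell cannot be told apart either. Between the basal cells of the PTX and TRAP experiments, which lie in different array sets, 0 of 10 genes passed limma's test, against 0.043% of all, with 5 at an unadjusted p under 0.05 (12.3% of all). Both PTX basal arrays lay above both TRAP basal arrays for 4 genes and below for 5, against 20.9% and 22.2% of all. Ccnd1 was lower without overlap, by 0.75 on the log2 scale (-0.75 ± 0.22, limma adjusted p = 0.198). With the array sets as a block the difference was -0.067 (adjusted p = 0.974). Neither basal group holds arrays of both sets. The block therefore rests on the stimulated arrays alone and cannot part set from experiment in these basal cells.

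The remaining genes of the pathway are described by lists. Other G1 cyclins, CDKs and their regulators were called in 2 of 11 tested after thrombin, where Cdk7, the kinase that activates CDKs, fell by 0.37 ± 0.09 and its partner Ccnh rose by 0.43 ± 0.11. After TRAP 1 of 11 was called, Cdk7 again (-0.36 ± 0.09), and after PTX and TRAP 0 of 11, with Cdk7 at -0.16 ± 0.09. Without the crossing arrays, which the thrombin response does not use, Ccnh stayed at 0.43 with an adjusted p of 0.0633. Cdk7 after TRAP was then -0.43 (adjusted p = 0.0631). Of the Rb and E2F genes 0 of 9 passed limma's test in any of the 3 responses, with list medians of 0.05, 0.01 and 0.11. With the block the medians after TRAP and after PTX and TRAP were 0.08 and 0.03. Other CDK inhibitors fell in 2 of 4 after thrombin: Cdkn1b, which encodes p27, by 0.73 ± 0.12 (adjusted p = 0.00351) and Cdkn2b by 0.79 ± 0.19 (adjusted p = 0.0279). Cdkn2d, which encodes p19 of the same family as p18, fell by 0.76 ± 0.18 after TRAP (adjusted p = 0.0294), the 1 of 4 called there, and measured -0.48 without the crossing arrays (adjusted p = 0.249). The 4 inhibitors had a median of -0.64 after thrombin, -0.30 after TRAP and -0.01 after PTX and TRAP. With the array sets as a block the TRAP medians were -0.20 and, after PTX, -0.05. Without the crossing arrays they were -0.16 and -0.01.

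Of p53 and its targets, 1 of 12 fell after each stimulus and 0 rose. The stress-response genes Sesn1 (-1.09 ± 0.17 after thrombin) and Sesn2 (-1.24 ± 0.14 after TRAP with adjusted p = 0.00152 after PTX and TRAP) were the ones called. Among 7 partners of Gadd45 and stress kinases, Map2k3, which activates p38, rose in all 3 experiments, by 0.99 ± 0.14, 0.55 ± 0.14 and 1.19 ± 0.14, and 0 others were called. The rise after TRAP (adjusted p = 0.043) became 0.59 without the crossing arrays and did not pass (adjusted p = 0.0854). Transcription factors that act on G1 genes rose in 8 of 15 after thrombin with 1 lower, in 6 of 15 after TRAP and in 6 of 15 after PTX and TRAP. Their medians of 0.78, 0.13 and 0.46 compare with -0.04 for all probe sets. The medians after TRAP and after PTX and TRAP were 0.30 and 0.32 with the array sets as a block. Without the crossing arrays they were 0.27 and 0.30. Egr1 rose by 1.60, 1.99 and 2.38, Fosl1 by 3.78, 3.49 and 3.17, Junb by 1.80, 1.48 and 1.24, and Ets1 by 1.24, 1.16 and 0.80. The cyclin genes thus showed no called rise at 120 min on arrays where these factors were called higher.

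Genes with the most similar profiles were sought for the 3 members with the smallest p in the average, by Pearson's correlation of log2 signal over the 12 arrays. These arrays share experiments and sets, so the correlations describe levels across experiments as much as responses. For Gadd45g they were Clint1 (r = 0.985), Icam1 (r = 0.974) and Riok3 (r = 0.954). For Gadd45a they were Ifit2 (r = 0.98), Pigs (r = 0.969) and Atg10 (r = 0.969). For Cdkn2c they were Plagl1 (r = 0.913), Spin4 (r = 0.906) and Trim37 (r = 0.897).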

How the data were processed

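RNA of 12 samples was measured on 1-colour arrays. Per the labels and the submitters' processing notes, the authors made the deposited intensity values with GCOS 1.4, in linear units. With the lowest and highest 2% removed, each array averages 200.07 to 200.08. Detection calls and the genome build are not given in the sources used here.

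Probe sets were named where the array annotation lists 1 symbol, and 10 of 10 member symbols matched the RefSeq rat gene table by Entrez number. After removal of 57 control probe sets, those brighter than the 40th percentile (mean of log2(signal + 16)) were kept, which left 18625. They were tested with limma 3.58.1 in R 4.3.3, with 6 groups in 1 fit, an intensity trend and 6 residual degrees of freedom. Having 2 arrays a group limits the precision, and responses had a median standard error of 0.16. The code was checked on simulated data, which held no array sets. Of 1.5-fold changes 34.3%, 37.3% and 26.9% were recovered in the thrombin, TRAP and TRAP after PTX responses, and 80.6% in the average. A gene that was not called in a single response can therefore still have changed by that much.

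The members and lists were chosen with earlier results of these data known. All members are named, and per list up to 4 genes with the smallest p in the average among those called in a response. The list genes named for the basal comparison, the markers, and Myc and Klf6 were picked after their values were seen. Tried as alternatives were pseudocounts, filters, scalings, no trend, array weights, the compared arrays alone, blocks for replicate number and array set, other probe sets, and removal of arrays.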

Additional observations from a re-analysis of the deposited data

Results flagged for a closer look

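Among the listed genes of the pathway, 3 responded differently to thrombin and to TRAP by limma's test of the difference itself. Myc, a transcription factor gene that drives entry into the cell cycle, rose by 1.08 ± 0.12 (SE, log2) after thrombin and measured -0.35 ± 0.12 after TRAP, a difference of 1.43 (adjusted p = 0.00172). Klf6, a factor known to act on Cdkn1a, rose by 1.78 ± 0.15 after thrombin and measured 0.13 ± 0.15 after TRAP, a difference of 1.65 (adjusted p = 0.00328). Sesn2 measured -0.15 ± 0.14 after thrombin and fell by 1.24 ± 0.14 after TRAP, a difference of 1.09 (adjusted p = 0.0271). The basal cells of the thrombin experiment differed beforehand from those of the TRAP experiment, by -2.41 ± 0.12 for Myc (adjusted p = 7.94e-09), -1.66 ± 0.15 for Klf6 (adjusted p = 1.74e-06) and -0.38 ± 0.14 for Sesn2 (adjusted p = 0.0436), so the rises of Myc and Klf6 started from lower levels.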

How the results depend on the processing

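The 80 member results (10 genes in 8 comparisons) were recomputed under 24 alternatives. Of the 13 called, 9 kept their call in all 24, and 0 called results turned sign. After thrombin the 0 members called became 3 with the array set block (Cdkn2c, Gadd45a and Gadd45g). Their values of -0.45, -0.40 and 0.49 were the same with the block and without the crossing arrays, so only the p-values moved. Except for the replicate block, calls over all probe sets in the alternatives are not given here. Changed counts are therefore not read as results about these genes. After TRAP the 2 called became 0 without a filter on dim probe sets and 0 without an intensity trend. With the array set block 2 were called, but not the same genes. Cdkn1a and Gadd45g were lost (limma adjusted p = 0.0923 and 0.0626), and Ccnd2 (-0.41, adjusted p = 0.0458) and Gadd45a (-0.63, adjusted p = 0.00254) were called lower. Ccnd2 was also called lower with quantile normalization, array weights or the filter above the 60th percentile. Without the crossing arrays Gadd45a measured -0.63. When an array was left out, Cdkn1a ranged from 0.44 to 0.52, Gadd45g from 0.53 to 0.89 and Ccnd2 from -0.43 to -0.30. After PTX and TRAP the 0 called became 0 to 1 when an array was left out. In the average the 3 called became 5 with quantile normalization, which added Ccnd2, Ccnd3 and Cdk4 and lost Cdkn2c. Between the basal cells of the PTX and TRAP experiments 0 became 1, Ccnd1, with the compared arrays alone and without the crossing arrays. On its other probe set the TRAP response of Cdkn1a turned to -0.0012. The causes were not tested. The replicate block changed none of these counts: it gave 0, 2, 0 and 3 members called after thrombin, TRAP, and PTX and TRAP, and in the average. Over all probe sets it gave 715, 603, 374 and 2133 calls in place of 882, 727, 505 and 2453. Same-numbered arrays deviated together with r = 0.134, 0.104 and 0.022, so the numbers are not taken to pair samples.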
